A study of Homo sapiens with 12 samples.

Results

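The abundant piRNA entries are the 97 entries of the class piRNA that were listed in both deposited tables of small RNA from Mono Mac 6 (MM6) cells and had a mean of at least 50 normalized counts over the 4 groups. They were drawn from 219 piRNA entries and 990 entries of all classes found in both tables, and they were chosen by these 4 measured group means, so that their high level is a description and not a finding. MM6 is a human monocytic cell line. Wild-type cells and 5-LOΔ MM6 cells, in which ALOX5, the gene for 5-lipoxygenase (5-LO), was knocked out with CRISPR/Cas9, were compared without and with LPS, a component of the bacterial outer membrane that stimulates monocytes. Cells of all 4 groups were differentiated by TGF-β (1 ng/mL) together with calcitriol (50 nM) over 72 h per the labels. The legend to the sequencing data names the same duration, whereas the general culture methods name a longer one. Both LPS groups had received 1 µg/mL LPS for 6 h. Each group comprised 3 libraries made from total RNA (12 libraries), and the mixed libraries were size-selected. The knockout cells were single-cell clones, and which clone gave which library is not stated in the labels, so that an effect of the knockout and one of clonal selection cannot be told apart here. ALOX5 mRNA is outside what these libraries measure, so that the genotype could not be checked in them. The study examined its clones by sequencing of the locus and by Western blot.

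piRNAs are small RNAs that guide PIWI proteins and silence transposons, mainly in the germ line. Collections of piRNA names also hold sequences that match pieces of tRNA, rRNA or snoRNA, so that in a somatic cell a piRNA entry states which listed sequence a read matched and not that the RNA was bound by a PIWI protein. The targets and functions of the single entries are not given in the files. Names are written here without the leading hsa.

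The tables hold 1 mean of normalized counts per genotype and no value of a single library. Levels below are therefore the authors' means over 3 libraries without an SD, no difference was tested, and whether a ratio exceeded the spread between replicates was not measured. Size factors recovered from the low means put the depth at 29964869 to 36498720 annotated reads per group (summed over 3 libraries), with at least 105 reads behind each mean of an abundant piRNA entry. The 95% intervals given for log2 ratios cover counting error of reads only, since the means hold no spread between libraries. PCR copies could not be told from separate molecules, so that these intervals may be too narrow for counts of molecules. In bulk RNA, fewer cells that hold an RNA and less of it per cell cannot be told apart. All 6 miRNAs listed as markers of blood cells were present, with sums of 4439 to 6547 over the groups, while 2 of 10 markers of other tissues were listed, with sums of 17.4 to 42.3. Of the blood sums, miR-21-5p gave the largest part in each group (2499 to 3885). The lowest single mean of a blood marker was 58.0 (miR-223-3p in LPS-treated knockout cells), near the highest of the others, 42.3 (miR-9-5p in knockout cells without LPS).

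The abundant piRNA entries summed to 1731802 normalized counts in wild-type, 1893926 in 5-LOΔ, 1526025 in LPS-treated wild-type and 1535590 in LPS-treated 5-LOΔ cells. This was 16.1%, 15.6%, 15.8% and 15.1% of all means in these groups. They carried at least 99.9% of the piRNA signal of each group, since the 122 other piRNA entries found in both tables lay under the minimum. A further 140 piRNA entries were listed only without LPS, with means up to 5.71, and 95 only with LPS, with means up to 2.00.

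The signal was concentrated in few entries. Levels were not corrected for length, so that the order below is one of normalized counts. The most abundant, piR_001207, had 664403 normalized counts in wild-type, 785850 in 5-LOΔ, 590332 in LPS-treated wild-type and 633619 in LPS-treated 5-LOΔ cells, which was 38.4% to 41.5% of the sum of the abundant entries. The 10 highest entries together held 81.5% to 85.9%. By mean level, 22 entries had at least 10000 normalized counts, 24 had 1000 to 10000, 41 had 100 to 1000 and 10 had 50 to 100.

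**Figure D1:**
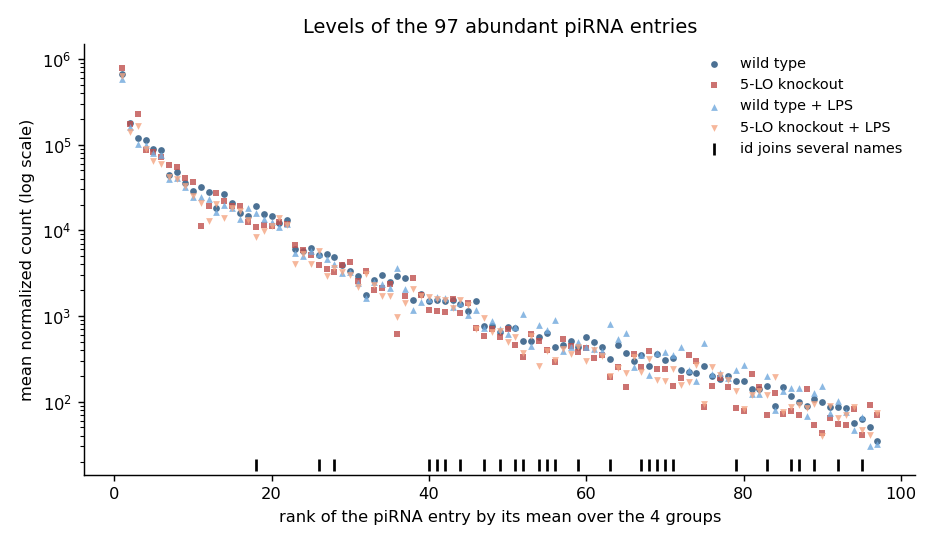
Mean normalized count (log axis) of each of the 97 abundant piRNA entries in the 4 groups, ordered by the mean over the groups, with ticks under the ids that join several names. Levels ran from 664403 for the first entry to 34.9 for the last one in wild-type cells, and most ids joining several names stood in the lower part of the order.

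After piR_001207, the order was led by piR_001159 and piR_016735. piR_001159 had 180325, 175844, 159013 and 142478 normalized counts in wild-type, 5-LOΔ, LPS-treated wild-type and LPS-treated 5-LOΔ cells. piR_016735 had 119523, 231420, 101603 and 163891 in the same order of groups, and ranked 3 by its mean over the groups, but stood above piR_001159 in both knockout groups. In wild-type cells piR_000552 (114941) stood close to it, whereas in knockout cells it had 87706. In the LPS-treated groups piR_000552 had 98568 in wild-type and 88475 in knockout cells.

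The next 6 entries differed in the group in which they were highest. piR_017194 lay between 65125 and 89881 normalized counts and piR_017178 between 59347 and 86168. Both were highest in wild-type cells without LPS and lowest in LPS-treated knockout cells. piR_020439 (39997 to 57691), piR_018292 (40007 to 55441), piR_000586 (32022 to 41170) and piR_012681 (24797 to 36840) were all highest in knockout cells without LPS.

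At the lower end, the minimum of 50 separated entries of like level. Just inside were piR_019521 with a mean of 52.6, piR_010894 with 53.4 and the joined id piR_019752/piR_016926/piR_016984 with 54.4. Just outside were piR_016946 with 48.5, piR_020619 with 46.9 and piR_006465 with 46.3. Of the 97 entries, 92 reached 50 in every group and 5 were under 50 in at least 1 group, so that these 5 passed through the groups in which they were high. They were piR_019521 and piR_016659, lowest in wild-type groups, piR_012734 and piR_019752/piR_016926/piR_016984, under 50 in both knockout groups, and piR_010894, under 50 in both LPS groups.

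Many ids joined several piRNA names. Of the 97 entries, 69 had 1 name, 8 joined 2 names, 11 joined 3, 8 joined 4 and 1 joined 5. The 155 mentions of names came from 110 different names, of which 25 occurred in more than 1 entry, and piR_001312 and piR_018570 each occurred in 6. Through shared names, 24 entries (23 joined ids and the single-name entry piR_015026) fell into 7 linked groups, the largest with 9 entries, while 5 joined ids shared no name with another entry.

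The joined ids were of moderate level. Their median was 430 normalized counts in wild-type cells, against 1738 for entries with 1 name, and together they held 1.49% to 2.70% of the sum of the abundant entries. The highest was piR_017104/piR_005271 with 19067 in wild-type, 10981 in 5-LOΔ, 15991 in LPS-treated wild-type and 8389 in LPS-treated 5-LOΔ cells. It was followed by piR_018570/piR_001312/piR_000765 with 5158, 3956, 5292 and 5671, and by piR_020814/piR_002732 with 4862, 3265, 4034 and 3644. The next were piR_018570/piR_001312/piR_000765/piR_000291 (1185 to 1666) and piR_009295/piR_001312/piR_018570 (1129 to 1662), both lowest in knockout cells without LPS.

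A set of names could stand in 2 orders as separate entries with different values. This was seen for 8 sets, 5 of which were exact reverses of each other. The level of the higher id was 1.02 to 7.38 times that of the lower one over all groups. The widest gap was between piR_018570/piR_001312/piR_000765 and its reverse, whose means were 762, 588, 717 and 954 in the 4 groups. The log2 ratios of knockout to wild type differed by at most 0.31 within a pair, with a median difference of 0.10. Whether linked entries counted the same reads was not tested, and they are not taken as independent of each other.

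To describe the effect of the 5-LO knockout without LPS, the knockout mean of each entry was divided by the wild-type mean. The abundant piRNA entries had a median log2 ratio of -0.29, with 31 entries higher and 66 lower in 5-LOΔ cells (68.0% lower, against 50.5% of all entries and 47.7% of those with a mean of at least 50). The median was negative under each scaling tried (-0.46 to -0.27). It was nearer to none with joined ids left out (-0.09, with 39 of 69 entries or 56.5% lower) and with the highest entry of each linked group only (-0.19). The median over all 889 entries above 0 in both groups was -0.01. At least 2-fold higher in knockout cells was 1 of 97 entries, where the share was 7.31% of all entries and 1.76% of the entries of any class with a mean of at least 50. At least 2-fold lower were 12 of 97 (12.4%), against 10.0% of all entries and 3.91% of those with a mean of at least 50.

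The entry with the lowest ratio without LPS was piR_001184. Its means were 2958 in the wild type against 617 in 5-LOΔ cells, and 3625 against 976 in the LPS-treated cells, so that both knockout groups lay under both wild-type groups. The log2 ratio was -2.26 without LPS (95% counting interval -2.34 to -2.19) and -1.89 with LPS (-1.95 to -1.83). piR_019912 had 261 and 87.5 normalized counts without LPS and 482 and 93.0 with LPS in wild-type and knockout cells. Its log2 ratios were -1.57 and -2.38, the latter the lowest of the 97 entries with LPS. Both entries were at least 2-fold lower in the knockout in each table.

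Other low ratios without LPS did not all recur. piR_001170, an entry of high level, had 32226 in wild-type but 11219 in 5-LOΔ cells (log2 ratio -1.52), but 24663 and 20755 in the LPS-treated cells (-0.25). piR_020582 had log2 ratios of -1.34 without and -1.57 with LPS, and piR_012734 of -1.21 and -1.93. The latter was under the minimum of 50 in both knockout groups (43.0 and 40.2) and passed it through the wild-type groups (99.5 and 153), which favours a low ratio. Over both tables, 5 of 97 entries, piR_012734 among them, were at least 2-fold lower in knockout cells in each table, against 4.98% of 844 entries of all classes above 0 in the 4 groups and 1.76% of those with a mean of at least 50. In at least 1 table it was 20 of 97, against 14.8% and 6.64%.

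Fewer entries were higher in the knockout. piR_019521 had 34.9 normalized counts in wild-type but 70.6 in 5-LOΔ cells, and 31.9 and 73.1 with LPS, with log2 ratios of 1.02 and 1.20. It was the 1 abundant piRNA entry at least 2-fold higher in both tables, against 2.37% of all entries and 1.17% of those with a mean of at least 50. It passed the minimum through the knockout groups in which it was high, which favours a high ratio. Its counting interval without LPS ran from 0.68 to 1.35 and thus held ratios under 2-fold. piR_016735, described above for its high level, followed with a log2 ratio of 0.95 without LPS and 0.69 with LPS. piR_001356 had 1738 and 3340 without LPS and 1605 and 3097 with LPS, which gave 0.94 and 0.95. piR_010894 had ratios of 0.88 and 0.43. It passed the minimum through the groups without LPS, mainly the knockout group, which favours a high ratio there. piR_020009 had ratios of 0.84 and 0.83.

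Because of piR_001207 and piR_016735, the summed level did not follow the median. The log2 ratio of the summed means, knockout to wild type without LPS, was 0.13 with all 97 entries and -0.11 without these 2. Scaled to equal sums of all means, which lowers each of these ratios by 0.17, the ratio of the sums turned negative as well.

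With LPS, the knockout comparison rested on 6 other libraries. The median log2 ratio of the abundant piRNA entries was -0.16, with 32 higher and 65 lower (67.0% lower, against 51.0% of all entries and 48.4% of those with a mean of at least 50). The median over 876 entries of all classes was -0.02. At least 2-fold higher were 2 entries, against 6.96% of all entries and 1.76% of those with a mean of at least 50. At least 2-fold lower were 13 (13.4%), against 11.0% and 4.49%. Without joined ids it was 7 of 69 (10.1%).

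The highest ratio with LPS belonged to piR_020008. Its means were 89.7 in the wild type against 126 in 5-LOΔ cells without LPS, and 79.7 and 196 with LPS, which gave log2 ratios of 0.50 and 1.3 (95% counting interval 1.08 to 1.52). piR_016659 had 0.89 with LPS, where its wild-type mean (46.9) was under the minimum. Of the low ratios, the joined id piR_000794/piR_019914/piR_016945/piR_022628 had 317 and 194 without LPS and 798 and 200 with LPS, hence -0.71 and -2.0. piR_004987 had -1.19 and -1.71.

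**Figure D2:**
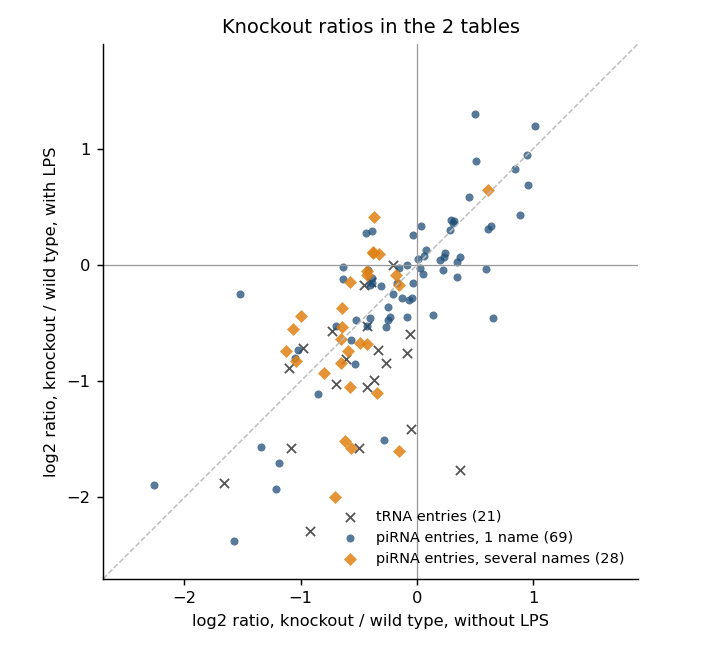
Log2 ratio of 5-LOΔ to wild-type means without LPS (horizontal) and with LPS (vertical) for 69 abundant piRNA entries with 1 name, 28 that join several names and 21 tRNA entries with a mean of at least 50, with a dashed line of equal ratios. Of the 97 piRNA entries, 58 lay under 0 on both axes and 24 above 0 on both.

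The 2 tables share no library. Of the 97 entries, 58 were lower and 24 higher in knockout cells in both tables, while 8 were lower without LPS and higher with it and 7 the reverse. The shares lower and higher in both tables were 59.8% and 24.7%, against 37.4% and 37.1% of 844 entries of all classes and 37.5% and 41.4% of those with a mean of at least 50. Across the entries, the ratios of the tables had a Pearson correlation of 0.75 and a Spearman correlation of 0.76 (n = 97 entries, which are not independent replicates). For 242 snoRNA entries with a mean of at least 50 the Pearson correlation was 0.80 and for 72 mature miRNAs 0.77, while for 21 tRNA entries it was 0.29.

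The ratio with LPS minus that without it differed most for a few entries. piR_001170 had the highest difference, 1.27, followed by piR_020008 with 0.80 and piR_000765/piR_001312/piR_018570 with 0.78, whose ratios were -0.37 without and 0.41 with LPS. The lowest were piR_004801/piR_017295 with -1.45, piR_000794/piR_019914/piR_016945/piR_022628 with -1.29 and piR_005018 with -1.22. For piR_004801/piR_017295 the means were 572 and 513 without LPS and 796 and 262 with LPS. For 30 of the 97 entries the counting interval of the difference held 0. This count depends on read depth, since the interval leaves out the spread between replicates, and the share over all entries is not given here.

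Joined ids and entries with 1 name had different ratios. Without LPS, 27 of 28 joined ids were lower (96.4%), with a median log2 ratio of -0.57. Of the entries with 1 name, 39 of 69 were lower (56.5%), with a median of -0.09. The share lower was 50.5% of all entries and 47.7% of those with a mean of at least 50. With LPS it was 23 of 28 (median -0.59) against 42 of 69 (-0.11). The 1 joined id higher in both tables was piR_000651/piR_019324/piR_001040, with 258 and 392 without LPS and 203 and 316 with LPS, hence 0.61 and 0.64. Leaving joined ids out moved the median without LPS from -0.29 to -0.09, and keeping only the highest entry of each linked group gave -0.19.

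**Figure D3:**
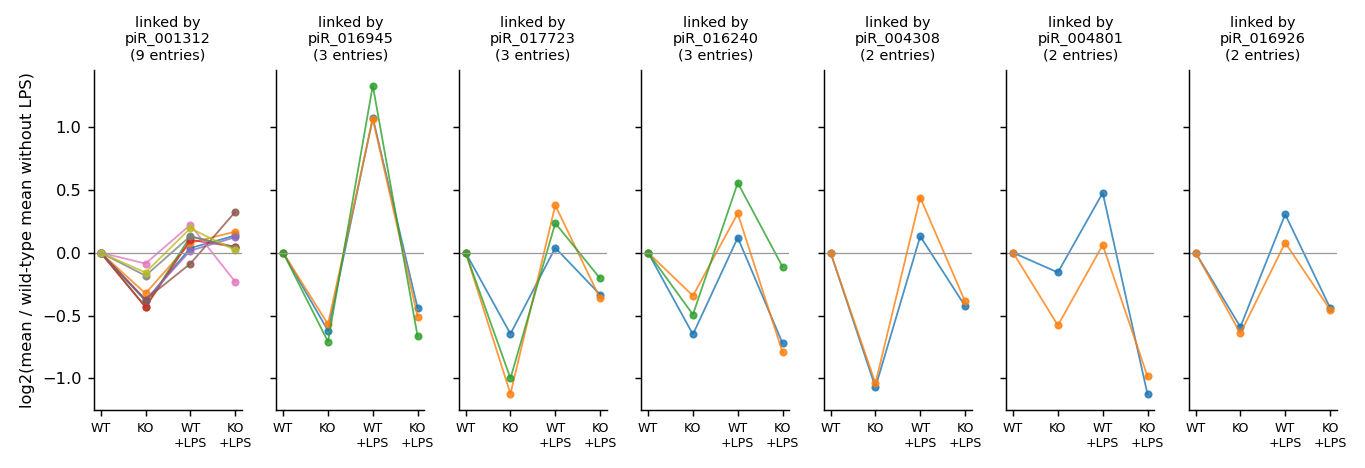
Log2 of each entry's mean relative to its wild-type mean without LPS in the 4 groups (WT, wild type, KO, knockout), for the 24 abundant piRNA entries in the 7 groups linked by a shared name, 1 line per entry. All 24 entries were lower in knockout than in wild-type cells without LPS, and the 3 entries that share piR_016945 lay above 1 in LPS-treated wild-type cells.

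Within a linked group, ratios were not identical. The 9 entries linked through piR_001312 and its partners had ratios from -0.43 to -0.09 without LPS and from -0.45 to 0.41 with LPS. The 3 entries that share piR_017723 ranged from -1.12 to -0.65 without and -0.74 to -0.37 with LPS. The 3 entries around piR_016945 lay between -0.71 and -0.57 without LPS and between -2.0 and -1.51 with it. The 2 entries that share piR_004308 had medians of -1.06 without and -0.69 with LPS, and the 2 that share piR_004801 had -0.37 and -1.32.

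The 5 joined ids of lowest level were also lower in the knockout. piR_016984/piR_016926/piR_019752 (117, 77.5, 144 and 86.1 in the 4 groups) and the same names in reverse order (63.5, 40.7, 67.1 and 46.4) had knockout ratios of -0.59 and -0.64 without LPS. The latter passed the minimum through the wild-type groups, which favours a low ratio. piR_017723/piR_004307 (107, 53.7, 126 and 93.2) and piR_016970/piR_020829 (86.2, 55.0, 101 and 64.8) had -1.0 and -0.65. The longest id, which joins 5 names from piR_016946 to piR_009502, had 98.3, 69.9, 145 and 91.0, hence -0.49 without LPS.

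LPS was compared with no LPS across 2 tables that may have been normalized separately, so a common shift of scale may remain in every ratio. The median over all entries was -0.19 in both genotypes, and ratios below are given relative to it unless counts of 2-fold calls are stated. Relative to that shift, the abundant piRNA entries had a median of 0.03 in wild-type and 0.09 in 5-LOΔ cells, with 60 and 57 of 97 entries above it. As deposited, the medians were -0.16 and -0.10, so that the direction depends on the scale.

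In wild-type cells, 3 of 97 entries were at least 2-fold higher as deposited, against 4.66% of all entries and 1.95% of those with a mean of at least 50. None was at least 2-fold lower, against 5.21% and 0.00%. Relative to the shift, 5 were at least 2-fold higher and 0 lower, against 6.32% and 4.10% of all entries and 2.34% and 0.00% of those with a mean of at least 50. In 5-LOΔ cells, none was at least 2-fold higher and 2 (piR_010894 and piR_017033) were lower as deposited, 1 of them at a minimum of 100, against 4.0% and 5.99% of all entries and 1.17% and 0.586% of those with a mean of at least 50. Relative to the shift this became 1 higher and 0 lower, against 5.33% and 3.66% of all entries and 1.37% and 0.195% of those with a mean of at least 50.

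In wild-type cells the 3 entries that share piR_016945 had the highest ratios. Relative to the shift they were 1.52 for piR_000794/piR_019914/piR_016945/piR_022628, 1.26 for piR_019914/piR_016742/piR_016945/piR_022628 and 1.25 for piR_022628/piR_016945/piR_019914/piR_016742. The second of these had 505 without and 1062 with LPS in wild-type cells, and in knockout cells 328 and 372. piR_005018 (1.11) and piR_019912 (1.08) followed. The lowest relative ratios were -0.53 for piR_010894, which passed the minimum through the groups without LPS, -0.24 for piR_020657, and between -0.22 and -0.21 for piR_000441, piR_008125 and piR_020009.

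In 5-LOΔ cells the order was another one. piR_001170 had the highest relative ratio, 1.08, from 11219 without to 20755 with LPS. It was followed by piR_017723/piR_004307 with 0.99, its reversed id with 0.95, piR_019368 with 0.92 and piR_000765/piR_001312/piR_018570 with 0.89. The lowest were piR_010894 (-0.98, from 92.2 without to 40.9 with LPS, a ratio that the minimum favours), piR_017033 (-0.86), piR_004801/piR_017295 (-0.78), piR_009051 (-0.62) and piR_010221 (-0.54). The 3 entries around piR_016945 were 0.24 to 0.37 above the shift here, compared with 1.25 to 1.52 in wild-type cells.

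**Figure D4:**
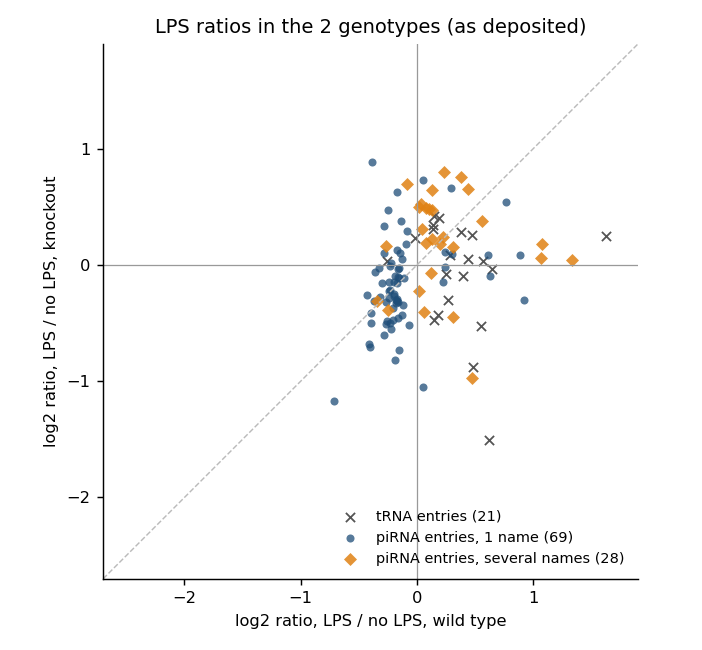
Log2 ratio of the mean with LPS to that without LPS, as deposited, in wild-type (horizontal) and 5-LOΔ cells (vertical) for the abundant piRNA entries with 1 name, those that join several names and 21 tRNA entries with a mean of at least 50. The median over all entries was -0.19 on both axes, and most joined ids lay right of and above it.

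The joined ids also differed from the single-name entries in these ratios. Relative to the shift, the medians were 0.32 for the 28 joined ids and 0.01 for the 69 others in wild-type cells, and 0.40 and 0.04 in 5-LOΔ cells. As deposited, the joined ids kept positive medians (0.13 and 0.21), while those of the others were negative (-0.18 and -0.16). Above the shift lay 25 and 22 of the 28 joined ids in the 2 genotypes, and 35 of 69 others in each.

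Other entries were described on the same scale. The piRNA entries under the minimum of 50 had a median knockout ratio of -0.31 without LPS (48 of 80 lower), close to that of the abundant ones, and of -0.07 with LPS (47 of 83 lower). Entries with a mean of at least 50 that are not abundant piRNA entries (415) had median knockout ratios of 0.08 without and 0.09 with LPS, and the former became -0.10 at equal sums of all means. The 242 snoRNA entries had medians of 0.04 and -0.01, which also changed sign with the scale, and the 72 mature miRNAs had 0.23 and 0.29, positive under each scaling tried. The 21 tRNA entries, RNAs that deliver amino acids to ribosomes, had -0.43 and -0.84, with 20 and 21 of them lower in knockout cells, and medians relative to the shift after LPS of 0.47 in wild-type and 0.23 in knockout cells. The 4 scRNA entries (small cytoplasmic RNA) had medians of -0.37 without LPS, with all 4 lower, and 0.16 with LPS, with 1 lower.

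**Figure D5:**
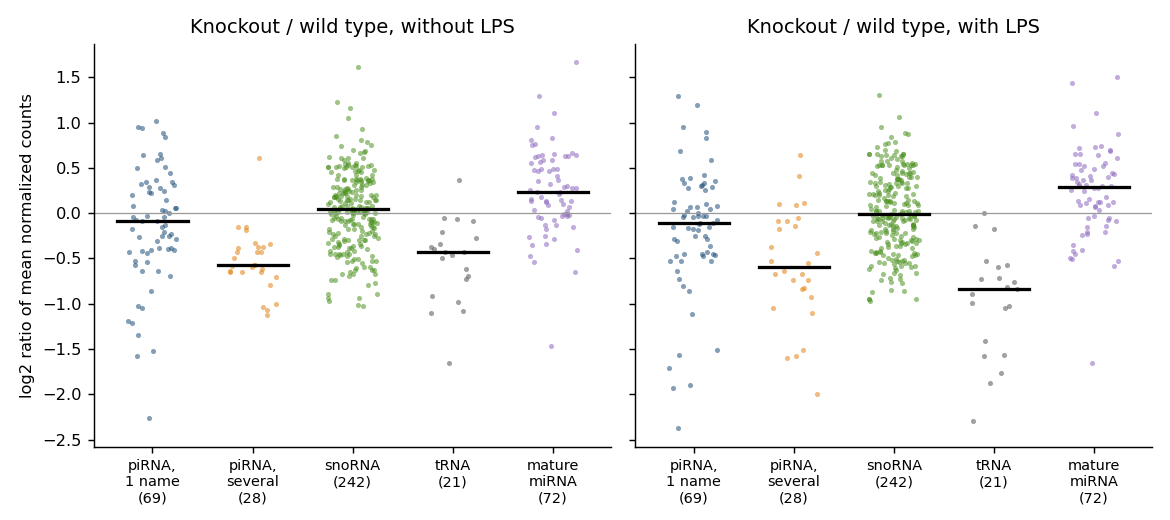
Log2 ratio of the knockout to the wild-type mean for each entry with a mean of at least 50, in the table without LPS (left) and with LPS (right), by class, with a bar at the median. The bar for piRNA ids that join several names lay at -0.57 and -0.59, near that of tRNA without LPS (-0.43) and above it with LPS (-0.84), while the bars of snoRNA lay at 0.04 and -0.01, whose signs change with the scale.

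Levels were also compared with those of other classes. Of the 97 abundant piRNA entries, 1 had an entry of another class whose 4 means all lay within 5% of its own, which was piR_017184, with 297, 364, 251 and 329 normalized counts beside 285, 369, 258 and 336 for the snoRNA U17b. At 10% there were 15. Among snoRNA entries compared in the same way with other classes it was 7 of 242 at 5% and 41 of 242 at 10%. As shares, the piRNA entries had 1.03% and 15.5%, and the snoRNA entries 2.89% and 16.9%. Sequences were not compared, and whether entries of different classes counted the same reads was not tested.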

How the data were processed

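Small RNA of 12 libraries (4 groups of 3) was sequenced. The authors trimmed adapters, annotated reads against hg19 with omiRas and deposited 2 tables, without and with LPS. The signal values deposited by the authors are means of normalized counts, made per genotype by averaging 3 libraries after omiRas normalization. For version, aligner and scaling, nothing is stated in the sources used here. The deposited fold change, p-value and FDR columns are the authors' comparisons and were not used. Groups were taken from the sample labels.

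Entries of class piRNA found in both tables with a mean of at least 50 over the 4 means were kept. The entries, lists and rules were chosen with earlier results of these data known. Log2 ratios were computed with no pseudocount. Size factors were set from the 3 smallest means of a group that were no sums of each other. With them, 100% of means of at most 10 came out as whole reads, within the rounding of 6 digits plus 3e-06 of the mean, or of 1 for means under 1 (0.228% to 2.27% after moving them by 0.07%). They gave counting errors of the ratios. The scripts were tested on simulated data. Because the tables hold means, the planned tests, replicate omission and replicate block were not run. Classes were compared by counts and medians.

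Named entries were the 10 highest, the 5 highest and 5 lowest joined ids, the 5 highest and lowest ratios in each comparison, the 3 entries on either side of 50, and the 3 highest and lowest differences between knockout ratios. Other joined ids and the entry piR_017184 were named after their values were seen. Alternatives were other scalings, a pseudocount of 10, minimum means of 20 and 100, joined ids left out, rRNA or precursors left out, and tolerances of 1% and 10%. Sequences of piRNA entries were not used here. The scripts ran in Python 3.11.15 with pandas 2.3.3, networkx 3.6.1, numpy 2.4.6, matplotlib 3.10.9 and scipy 1.17.1.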

Additional observations from a re-analysis of the deposited data

How the results depend on the processing

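No paired analysis was possible because each column averages the 3 libraries of 1 genotype, although the labels give the groups the same replicate numbers, and for the same reason libraries could not be left out in turn. No test was made, so that the values below are counts and medians, and the spread between replicates is unknown. Of 106 values recomputed under the alternatives, 68 stayed within their limit (counting error for medians and shares, 1.5 times for counts) and 38 moved. The cause of a moved value was not tested unless the alternative's construction gives it.

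The median knockout ratio without LPS was -0.46 at equal sums of all means, -0.087 without joined ids and -0.19 with the highest entry of each linked group only, an alternative added after the data were seen. The 1 entry at least 2-fold higher became 0 at equal sums of all means, at equal sums without rRNA and piRNA, with a pseudocount of 10 and at a minimum of 100. With LPS, the 2 higher entries became 1 with the pseudocount of 10 and at a minimum of 100, and the 13 lower became 7 without joined ids.

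For LPS in wild-type cells, the median of -0.16 became -0.0069 at equal sums of all means, -0.0099 at equal sums without rRNA and piRNA and 0.029 with the median of all entries at 0. The count of 3 higher entries became 5 under each of these, 0 without joined ids and 1 with the highest linked entries. For LPS in knockout cells, the median of -0.10 became 0.16, 0.13 and 0.094 under the same scalings, the count of higher entries (0) became 3, 2 and 1, and the count of lower entries (2) became 0 under all 3 and 1 at a minimum of 100.

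Without rRNA, the share of all means was 19.3% in wild-type, 20.1% in knockout, 18.99% in LPS-treated wild-type and 19.3% in LPS-treated knockout cells. Without miRNA precursors it was 16.2%, 15.7%, 15.9% and 15.3%. The entries with another class at a like level were 0 at 1% and 15 at 10%. Depth limits the lowest entries, where a counting interval reached 0.40 to either side on the log2 scale.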
